A study of Mus musculus with 12 samples.

Results

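Cyclins are the regulatory partners of the cyclin-dependent kinases (Cdks), and the genes described here are those of the A, B, D and E cyclins together with Cdk1, the kinase that drives entry into mitosis. Members were the non-control array probes that carry 1 of 10 gene names (Ccna1, Ccna2, Ccnb1, Ccnb2, Ccnd1, Ccnd2, Ccnd3, Ccne1, Ccne2 and Cdk1, which older array designs call Cdc2a) or whose RefSeq accession maps to such a gene. They came to 17 of the 41174 probes and to 10 of 21221 named genes. Levels were read in 12 single cells (blastomeres), both cells of each of 6 embryos of CF-1 mice bred naturally and collected at the 2-cell stage, about 36 h post coitus. Each embryo was taken apart by slitting its coat and pressing out the cells. The labels put 3 embryos in each experiment, as pairs D, I and L of the first and pairs D, G and H of the second. A pair is the cells of 1 embryo, numbered 1 and 2 in the labels, and these do not say what the numbers mean. The labels name no treatment, so the comparisons are between sister cells, between embryos and between the experiments. Nothing in the labels says how many mothers gave the embryos, so p-values measure the spread between these cells and embryos alone.

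Cyclin levels rise and fall with the cell cycle because the proteins are made and then destroyed by ubiquitin ligases. D cyclins act early in the first gap phase, E cyclins at the start of DNA replication, A cyclins through replication and into mitosis, and B cyclins with Cdk1 at mitosis. In the mouse oocyte and early embryo, cyclin B and Cdk1 form the factor that drives meiotic and mitotic divisions, and much of the messenger RNA for them is stored by the mother before fertilization.

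The signal of each probe was divided by the 75th percentile of its array and is given as log2. Values under a common floor of -4.12 were raised to it, so cells at the floor have no order among themselves. A signal well above background is one that the scanner software set apart from the local background. Each gene is followed through the cells by its tested probe with the highest mean, and levels of different genes are not set against each other, because probes differ in brightness.

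The arrays differed in ways that run with the experiments. Experiment 1 was read in the Cy5 dye and experiment 2 in Cy3, on different slides and in different scans, so experiment, dye, scan and slide cannot be told apart. Between 22.1 and 41.7% of non-control spots were well above background in experiment 1, and between 31.2 and 78.8% in experiment 2. Of 16 oocyte and 2-cell markers on the array, 14 to 16 were well above background in the cells of experiment 1 and 15 to 16 in those of experiment 2. All 8 stroma and smooth muscle markers were well above background in every cell of experiment 1, against 4 to 7 in experiment 2, and their summed scaled signal was 11.3 to 69.5 against 0.459 to 0.891. The 8 oviduct markers summed to 7.90 to 53.8 (6 to 8 well above background) against 0.489 to 1.95 (4 to 7). By their brightest probes Ovgp1, Krt7, Krt8, Krt18, Muc16 and Foxj1 (-0.21, log2) read lower in experiment 2, and Epcam (0.62) and Pax8 (0.54) higher. The 6 macrophage and blood markers summed to 5.99 to 254 (3 to 5) against 0.385 to 0.640 (2 to 5). Among them Lyz2, Apoe, Cd68 and Hba-a1 read lower in experiment 2. Ptprc was well above background in 0 cells of experiment 1 and 3 of experiment 2, and Csf1r in 3 and 0. The 13 cumulus and granulosa markers summed to 1.01 to 2.07 in experiment 1, with 1 to 5 of them well above background, and to 1.64 to 4.0 in experiment 2, with 3 to 11. Fshr and Tnfaip6 of that list were not well above background in any cell, while Amhr2 was so in 12 cells and Cyp19a1 in 11. Amhr2 read higher in experiment 2, with means of -0.99 in experiment 1 and 0.76 in experiment 2 (log2). The part of these differences in the results below was not tested.

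Of the 10 genes, 7 were well above background on at least 6 arrays and entered the tests with 11 probes, and 6 of them were so on all 12 arrays. Ccna1, Ccnd1 and Ccnd2 were not tested. Promoter sequences show how the mitotic genes of this family are built. Those of Ccnb1 and Cdk1 are printed because the brightest probe of each passed the test between the experiments. That of Ccnb2 is printed because it is the other B cyclin and its probe did not pass. Any link between promoters and readings was not tested. Each is the 250 bases before the annotated start, from RefSeq on build GRCm38.p6, on the minus strand, at chr13:100786487-100786736 for Ccnb1, chr10:69352913-69353162 for Cdk1 and chr9:70421555-70421804 for Ccnb2. Capitals mark, on either strand, CCAAT (the box bound by NF-Y), TTTGAA and TTTAAA (2 forms of the CHR, the cell cycle genes homology region bound by repressor and activator complexes), and TTGGCGC (letters that E2F factors bind).
Ccnb1: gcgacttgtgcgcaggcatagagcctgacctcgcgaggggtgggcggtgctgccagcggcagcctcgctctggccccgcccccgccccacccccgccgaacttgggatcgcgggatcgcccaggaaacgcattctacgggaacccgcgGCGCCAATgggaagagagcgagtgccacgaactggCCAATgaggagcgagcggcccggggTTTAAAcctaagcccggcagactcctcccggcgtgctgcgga
Cdk1: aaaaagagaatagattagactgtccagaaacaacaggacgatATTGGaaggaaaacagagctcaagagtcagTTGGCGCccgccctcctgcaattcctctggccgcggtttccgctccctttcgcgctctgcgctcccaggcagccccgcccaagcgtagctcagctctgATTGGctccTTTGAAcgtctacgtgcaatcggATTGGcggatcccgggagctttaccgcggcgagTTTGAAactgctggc
Ccnb2: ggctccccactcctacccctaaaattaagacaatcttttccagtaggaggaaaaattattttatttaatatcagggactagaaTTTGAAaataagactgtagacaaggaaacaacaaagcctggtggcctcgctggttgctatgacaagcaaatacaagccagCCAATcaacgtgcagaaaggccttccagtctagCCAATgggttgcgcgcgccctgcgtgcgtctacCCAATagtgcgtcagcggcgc

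Ccnb1 held 2 CCAAT boxes, the farther of which overlapped the E2F letters, and 1 TTTAAA. Cdk1 held 3 CCAAT boxes, 2 TTTGAA and 1 stretch of E2F letters, and Ccnb2 held 3 CCAAT boxes and 1 TTTGAA. The 6 members with a promoter in the table were these genes, Ccna1, Ccnd3 and Ccne1. A CCAAT box was found in 5 of the 6, TTTGAA in 2, TTTAAA in 2 and the E2F letters in 2. Among 32851 promoters of the same length, 33.8% held CCAAT, 16% TTTGAA, 12.1% TTTAAA and 1.97% the E2F letters. A match describes letters only, and nothing follows from it about binding in these cells.

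Ccnb1 encodes cyclin B1, the main mitotic partner of Cdk1, and was higher in experiment 2 than in experiment 1. By its brightest probe (A_52_P202770), pair D of experiment 1 read 0.43 and 0.68 in cells 1 and 2, pair I 0.21 and 0.29, and pair L 0.86 and 1.00. In experiment 2, pair D read 1.53 and 1.72, pair G 1.56 and 1.85, and pair H 1.49 and 1.15. All 6 cells of experiment 2 lay above all 6 of experiment 1, the lowest being cell 2 of pair H. The means were 0.58 ± 0.32 and 1.55 ± 0.24 (SD, n = 6 cells of 3 embryos each). The difference of 0.97 ± 0.19 (SE, log2) is a 1.96-fold higher signal (adjusted p = 0.00987 in limma).

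Cdk1 gave its clearest signal in experiment 2. Its tested probe (A_51_P450033) was well above background in 6 of 6 cells there and in 3 of 6 in experiment 1. In experiment 2, pair D read -2.59 and -2.79, pair G -2.84 and -2.47, and pair H -3.08 and -3.97. In experiment 1, cell 2 of pair D read -4.09 and the other 5 cells were at the floor. The groups did not overlap, though cell 2 of pair H came close to the floor. The difference was 1.16 ± 0.26 (SE, log2), 2.24-fold on the floored scale (adjusted p = 0.0164 in limma). Before the floor, those 5 cells of experiment 1 lay between -5.82 and -4.30, and both cells of pair I were well above background among them, so the floor narrows the spread in experiment 1. The second Cdk1 probe was well above background in 2 cells, both of pair D in experiment 2, and was not tested.

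Ccne2, encoding the second cyclin E, also read higher in experiment 2. By its brighter probe (A_52_P58558), the cells of pair D in experiment 1 read -3.56 and -3.93, those of pair I the floor and -3.74, and those of pair L -3.44 and -3.26. Among embryos of experiment 2, pair D gave -1.91 and -3.15, pair G -2.89 and -2.81, and pair H -1.44 and -2.16. The groups did not overlap, but cell 2 of pair D in experiment 2 lay only just above cell 2 of pair L in experiment 1. The difference was 1.28 ± 0.35 (SE, log2), 2.43-fold (adjusted p = 0.0455 in limma). The other probe, for a second transcript record of the gene, differed by 1.33 ± 0.37 (adjusted p = 0.0481 in limma), and its groups overlapped.

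**Figure D1:**
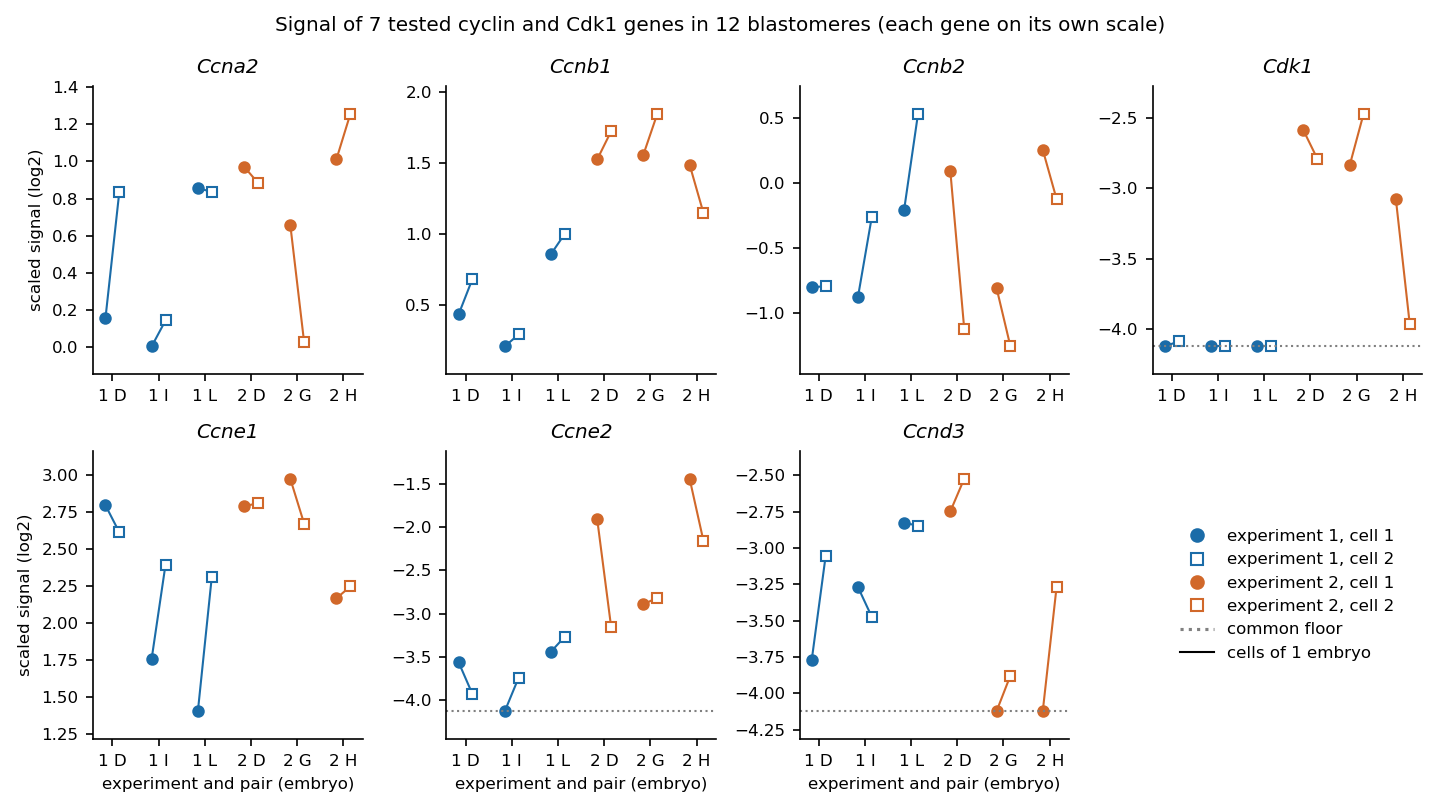
Scaled log2 signal of the 7 tested genes in each cell, 1 panel per gene with its own axis, by experiment and pair. Filled circles are cell 1, open squares cell 2, lines join the cells of an embryo and the dotted line is the floor of -4.12. The orange cells of experiment 2 lie above all blue cells of experiment 1 for Ccnb1, Cdk1 and Ccne2, and the groups overlap in the other 4 panels.

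Of the 7 tested members 3 were higher in experiment 2 and 0 lower, by limma with Benjamini-Hochberg adjustment over 16694 probes. The cells of experiment 2 alone carried Cdk1 past the filter of 6 arrays, with 5 of its 6 cells of experiment 1 at the floor, so its place in these counts is a description and supports nothing. With the test kept to the 5858 probes that stood well above background in each of the 12 cells, 2 of the 6 members left passed, Ccnb1 (adjusted p = 0.0186 in limma) and Ccne2 (0.0181), where 1336 of the 5858 probes did. Among all 11669 tested genes, 4.33% were higher and 4.92% lower in experiment 2 by the same rule. The experiments did not overlap for 3 of the 7 members, Cdk1 among them, against 8.67% of all tested genes. The median difference was 0.40 over the 7 members and 0.19 over all genes, of which 61.7% had a difference above 0. Over all tested probes the calls split about evenly, with 48.8% of the 1353 called probes higher in experiment 2, but this share was 12.7% with the percentile over all probes, 36.9% with normexp, 25.5% with a floor per array and 35.2% with a lower common floor. Measured from the median of all tested probes, also 0.19, Ccnb1 lay 0.77 higher, Cdk1 0.97 and Ccne2 1.09.

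The other members did not pass. Ccna2, cyclin A2, which serves both replication and mitosis, differed by 0.33 (95% confidence interval -0.27 to 0.92). Ccne1, the first cyclin E, differed by 0.40 (-0.24 to 1.04) and by 0.22 on its dimmer probe. Ccnb2, the second cyclin B, differed by -0.09 (-0.95 to 0.76) and Ccnd3, cyclin D3, by -0.24 (-1.0 to 0.53). Among these 4, the interval of Ccne1 alone reached past 1 log2 unit, which is 2-fold.

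The probes of Ccnb1 disagreed with each other. A_51_P287093 differed by 0.12 ± 0.46 (SE, adjusted p = 0.904 in limma) and its groups overlapped, from -1.95 to -0.64 in experiment 1 and from -2.72 to -0.23 in experiment 2. A_52_P558401 differed by 1.58 ± 0.51 (adjusted p = 0.0865 in limma), from -3.50 to -1.34 against -1.65 to -0.24, again with overlap. Centred within experiments, the brightest probe correlated with these at r = 0.36 and 0.21 over 12 cells, values that share arrays and embryos. For Ccne2 the probes correlated at 0.83 and for Ccne1 at 0.70. The call for Ccnb1 therefore rests on 1 of its 3 tested probes, while both tested probes of Ccne2 passed.

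**Figure D2:**
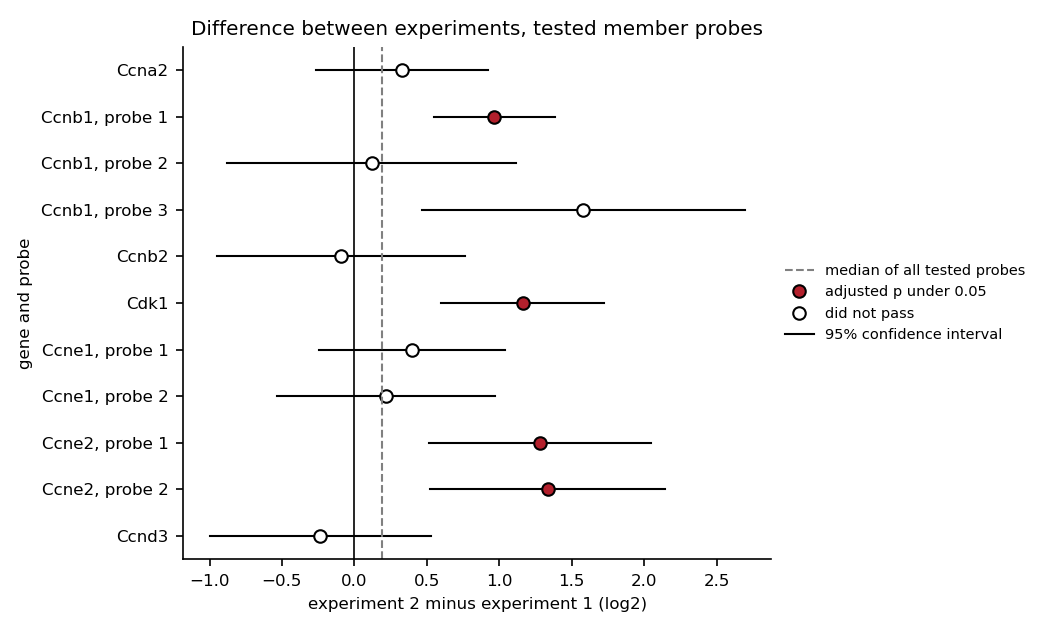
Experiment 2 minus experiment 1 (log2, limma) for the 11 tested member probes, with 95% confidence intervals. Filled points passed an adjusted p of 0.05, and the dashed line is the median of all tested probes, 0.19. The passing probes are 1 of 3 for Ccnb1, 1 for Cdk1 and both for Ccne2.

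How signals were scaled and floored decided several of these calls. With normexp background correction, Cdk1 differed by -0.06 (adjusted p = 0.638 in limma) and Ccne2 by 0.14 (adjusted p = 0.640), while Ccnb1 kept 0.92 (adjusted p = 0.00147). With the percentile taken over all probes, none of the 3 passed (adjusted p = 0.553 for Ccnb1, 0.377 for Cdk1 and 0.535 for Ccne2), although the differences stayed at 0.91, 1.03 and 1.24. A floor per array or a lower common floor left Ccnb1 at 0.97 and raised Cdk1 to 1.81 and 1.95, and none of the 3 passed. On the log2 of the authors' deposited values Cdk1 alone passed, at 2.15 (adjusted p = 0.0374 in limma), and Ccnb1 had an adjusted p of 0.0845. On several arrays the lowest deposited value is also the median, so low signals are tied there. With the cells of an embryo averaged first, 3 embryos against 3, the adjusted p in limma was 0.0874 for Ccnb1, 0.0820 for Cdk1 and 0.0953 for Ccne2.

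The call for Ccnb1 held when each cell in turn was left out, 12 of 12 times, with differences from 0.91 to 1.04. That for Cdk1 held 11 of 12 times and was lost without cell 1 of pair L in experiment 1 (adjusted p = 0.0533 in limma). Ccne2 passed 1 of 12 times, without cell 2 of pair D in experiment 2 (adjusted p = 0.0143). Across all 23 alternatives Ccnb1 passed in 18 and Ccne2 in 2, and Cdk1 passed in 16 of 22. In 12 of the alternatives 1 cell was left out while its sister stayed in. Every alternative in which Ccnb1 failed changed the scaling, the floor, the values or the averaging of cells. Ccnb1, Ccne2, Ccna2 and Ccne1 had a difference above 0 in 23 of 23, and Cdk1 in 21 of 22. For Cdk1 these counts are a description and support nothing, because the cells of experiment 2 carried it past the filter. With 5 of its cells of experiment 1 at the floor, leaving out 1 of those cells hardly changes that group.

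**Figure D3:**
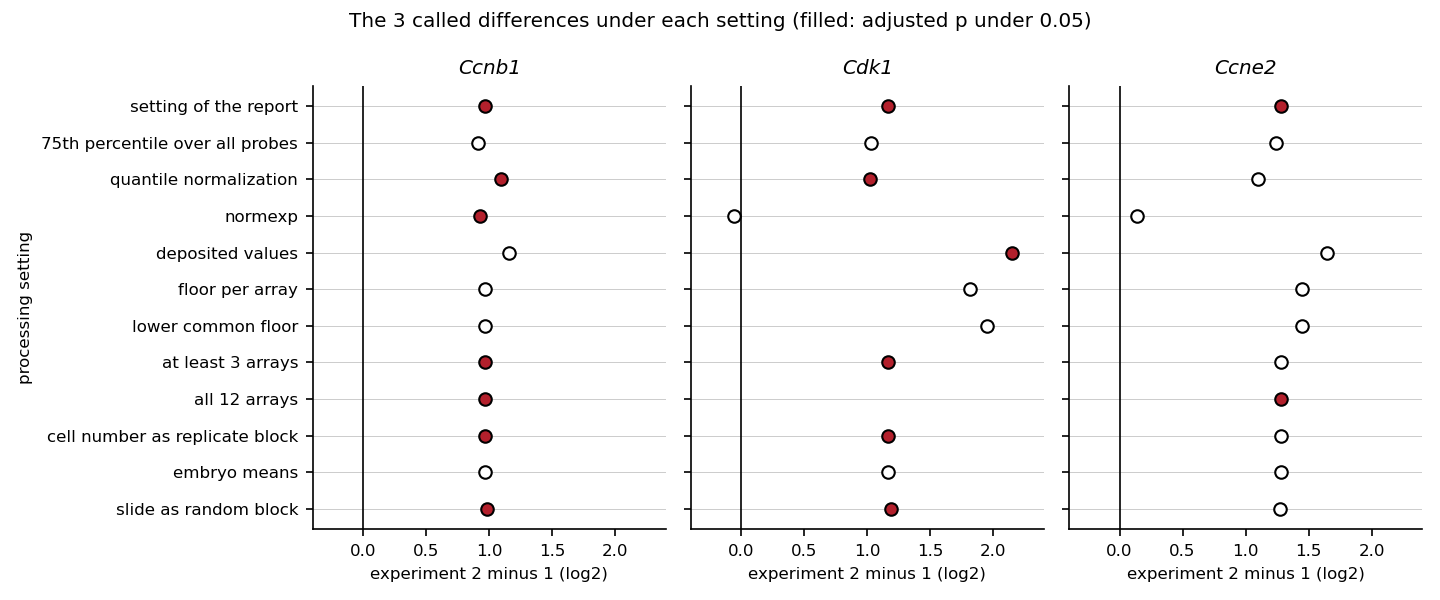
Experiment 2 minus experiment 1 (log2) for Ccnb1, Cdk1 and Ccne2 under each processing setting, with filled points for an adjusted p under 0.05. Ccnb1 stays between 0.91 and 1.16, while Cdk1 and Ccne2 fall to -0.06 and 0.14 with normexp. Cdk1 has no point for the filter on all 12 arrays, which it does not pass.

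By the brightest tested probe, cells of 1 embryo were nearer to each other than to cells of other embryos for each tested member. The mean absolute log2 difference between sisters (6 pairs) was smallest for Ccnb1, at 0.22, against 0.37 for cells of different embryos within an experiment (24 pairs). It was 0.30 against 0.52 for Ccna2, 0.38 against 0.72 for Ccnd3 and 0.35 against 0.56 for Ccne1. It was 0.57 against 0.74 for Ccnb2, 0.49 against 0.63 for Ccne2 and 0.25 against 0.32 for Cdk1, the last of which is set by the floor in experiment 1. By these probes sisters were the closer in 7 of 7 members and in 71.7% of all tested genes, and sisters always shared a slide. Pair D of each experiment had a slide to itself, while pairs I and L shared a slide, as did pairs G and H. Most comparisons between embryos therefore also crossed slides, and for pair D embryo and slide cannot be told apart. The dimmer Ccnb1 probe A_52_P558401 went the other way, with 1.01 between sisters against 0.75. The other dimmer tested probes, of Ccnb1, Ccne1 and Ccne2, had sisters the closer, with 0.55 against 0.88 for Ccnb1 (A_51_P287093).

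Ccna2 differed little between the sisters of pairs I and L of experiment 1. Pair D read 0.16 and 0.84, pair I 0.01 and 0.15, and pair L 0.86 and 0.84. In experiment 2, pair D read 0.97 and 0.89, pair G 0.66 and 0.03, and pair H 1.01 and 1.26. Pair I was the lowest embryo of experiment 1 and pair G of experiment 2, while the sisters of pair D in experiment 1 and of pair G lay 0.68 and 0.63 apart.

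Ccnd3 was near the floor throughout, though well above background on all 12 arrays. The cells of pair D in experiment 1 gave -3.77 and -3.06, pair I -3.27 and -3.47, and pair L -2.83 and -2.85. In experiment 2 the cells of pair D gave -2.75 and -2.52, pair G the floor and -3.88, and pair H the floor and -3.27. Pair D was the highest embryo of experiment 2, and it also had the arrays with the most spots above background. Over the 12 cells, centred within experiments, Ccnd3 correlated with that share of spots at r = 0.71, a description over cells that share embryos and slides.

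Ccne1 encodes the cyclin that with Cdk2 starts DNA replication. Its readings in experiment 1 were 2.79 and 2.61 for pair D, 1.76 and 2.39 for pair I, and 1.40 and 2.31 for pair L. They were 2.79 and 2.81 for pair D, 2.97 and 2.67 for pair G, and 2.16 and 2.24 for pair H of experiment 2. Cell 1 of pair L was the lowest of all 12 and lay 0.90 below its sister, the widest gap between sisters for this gene.

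None of these embryo differences passed. By limma's moderated F test, 0 of 7 members differed between embryos of an experiment (adjusted p from 0.120 for Ccnd3 to 0.326 for Ccne2), against 1.29% of all tested genes. At an unadjusted p under 0.05 there were 3, Ccna2, Ccnb1 and Ccnd3, which are named because they passed that looser threshold. Over the whole array 4983 of 16694 tested probes passed it too, so the count is not particular to these genes. No member passed under any of the alternatives run, except Ccnd2 when the filter was lowered.

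**Figure D4:**
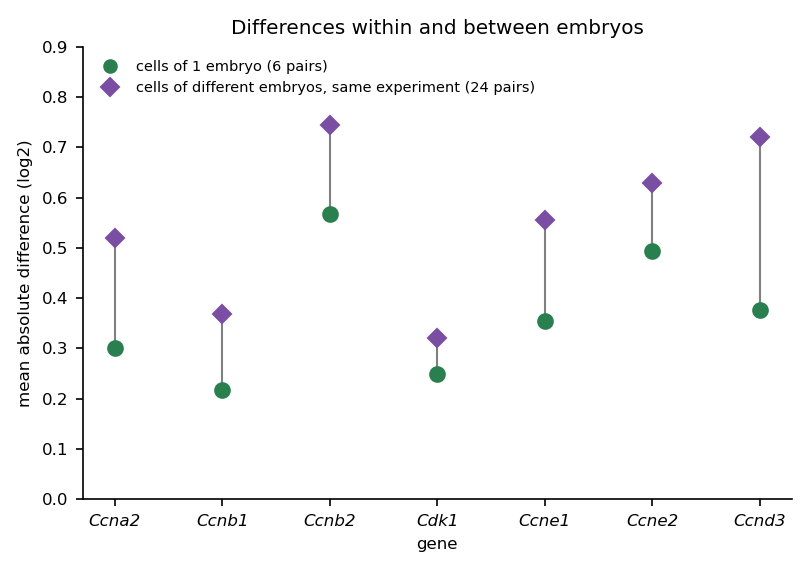
Mean absolute log2 difference of each tested gene between the cells of 1 embryo (green circles, 6 pairs) and between cells from different embryos of an experiment (purple diamonds, 24 pairs). Each gene is shown by its brightest tested probe. The circle lies below the diamond for each of the 7 genes, with the widest separation for Ccnd3 (0.38 against 0.72).

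Ccnd2, Ccnd1 and Ccna1 were measured in few cells. Cyclin D2 and cyclin D1 bind Cdk4 and Cdk6 early in the first gap phase, and cyclin A1 is known mainly from germ cells. The brightest Ccnd2 probe (A_51_P433228) was well above background in 5 of 12 cells. Both cells of pair D in experiment 2 read highest, -3.23 and -3.46, followed by cell 2 of pair L in experiment 1 at -3.65. Cell 1 of pair D in experiment 1 and cell 2 of pair G read -4.08 and -4.12, and the other 7 cells were at the floor.

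With the filter lowered to 3 arrays, Ccnd2 differed between embryos (adjusted p = 0.0448 in limma). Floor ties narrow the spread between sisters here, which was 0 for pairs I and H. Pair D of experiment 2, the highest embryo, was alone on its slide and scan day. Its arrays had 78.8 and 64.3% of spots well above background, so embryo, slide and array depth cannot be told apart. Over the whole array that filter called 3742 of 26447 tested probes, against 234 of 16694 with the filter of 6 arrays. The other Ccnd2 probes were well above background in 3 cells and 1 cell. Ccnd1 was well above background in 3 cells, both of pair I in experiment 1 and cell 1 of pair H, and only cell 1 of pair I, at -3.93, read above the floor. Ccna1 was well above background in 3 cells, cell 1 of pair I in experiment 1 and both cells of pair D in experiment 2, and was at the floor in all 12.

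The numbering of the cells carried no passing difference. Between cell 2 and cell 1 of the same embryo, 0 of 7 members passed in limma (adjusted p from 0.674 to 0.936), against 0% of all tested genes, and 0 members had an unadjusted p under 0.05. By the brightest probes, differences ran from -0.28 ± 0.23 (SE) for Ccne2 to 0.30 ± 0.17 for Ccnd3. The dimmer Ccnb1 probe A_52_P558401 differed by -0.43 ± 0.40. Cell 2 read higher in 5 of 6 embryos for Ccnb1, in 4 for Ccnd3 and Ccne1, in 3 for Ccna2, Ccnb2 and Ccne2, and in 2 for Cdk1, whose cells were both at the floor in 2 embryos. The signs of Ccna2, Ccnb1 and Ccne1 turned when the percentile was taken over all probes.

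For Ccnb2 the difference between cells 2 and 1 had opposite signs in the experiments, apart from pair D of experiment 1, whose cells read alike. In experiment 1 cells 1 and 2 read -0.80 and -0.80 (pair D), -0.88 and -0.26 (pair I), and -0.20 and 0.53 (pair L). In experiment 2 they read 0.09 and -1.12 (pair D), -0.81 and -1.26 (pair G), and 0.26 and -0.12 (pair H). Cell 2 minus cell 1 was thus 0.00, 0.62 and 0.74 in experiment 1 and -1.21, -0.45 and -0.38 in experiment 2. The difference of these differences was -1.13 ± 0.35 (SE) and did not pass (adjusted p = 0.912 in limma). No member passed for this interaction, 0 of 7 against 0% of all tested genes. By the brightest probes 1 had an unadjusted p under 0.05, as did 879 of all 16694 tested probes. The dimmer Ccne2 probe (A_52_P58560) had a value of the same size, -1.13 ± 0.29 (SE, adjusted p = 0.912 in limma), so the pattern is not particular to Ccnb2.

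Ccnb2 and Ccne2 had the highest correlation among the 21 pairs of tested members, with r = 0.88 over 12 cells centred within experiments (0.80 in experiment 1 and 0.94 in experiment 2). Both have the lower reading in cell 2 for pairs D and H of experiment 2. Ccna2 and Ccnb1 had r = 0.94 in experiment 1 and -0.82 in experiment 2, and 0.17 over all 12 cells. The lowest value over 12 cells was -0.50, for Ccna2 and Cdk1. These are descriptions, since the points share embryos, arrays and array depth and each experiment has 6 cells of 3 embryos.

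Among 4703 other genes measured on all 12 arrays, the pattern most like that of a member was sought by the same correlation over 12 cells. For Ccna2 it was Cep55, a protein of the midbody that ends cell division (r = 0.91), followed by Taf9b and Mrpl3 (both 0.88). For Ccnb1 the nearest were Fmr1nb (0.93), Dnah11 (0.92) and Cenpa, the histone H3 variant of centromeres (0.90). These follow its brightest probe alone, which correlated with its other tested probes at only 0.36 and 0.21. For Ccne1 they were AI661453 (0.93), Spast (0.91) and Ell2 (0.90), for Ccne2 Gkap1 (0.93), Brox (0.86) and Nudt7 (0.86), and for Ccnd3 Parl (0.88), Arid3a (0.87) and Psmc1 (0.87). Each value is among the highest of a large search over few cells, and no theme among these genes was tested.

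Other genes of the pathway were taken from 10 lists of 72 genes, of which 59 were tested. Between the experiments 5 were higher and 2 lower in experiment 2, which is 8.47 and 3.39% of those tested. Among all 11669 tested genes these shares were 4.33 and 4.92%. Cdkn3 and E2f4, among the higher genes, passed the filter through the cells of experiment 2, so their place in this count is a description. The median difference was 0.22, against 0.19 for all genes, and 41 of 59 lay above 0. In limma 0 of 59 passed between embryos and 0 between cell numbers, where 10 and 2 had an unadjusted p under 0.05. Over all 16694 tested probes, 4983 and 737 had such a p, so these counts do not set the pathway genes apart.

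Among direct partners of the kinases, Cks2, a small subunit that binds Cdk1, was higher in experiment 2 (1.17 ± 0.22 SE, 2.24-fold, adjusted p = 0.00775 in limma), as 1 of 2 Cks genes. Its cells read 2.34 to 3.48 in experiment 1 and 3.83 to 4.16 in experiment 2, with no overlap. Of 7 tested Cdk inhibitors only Cdkn3, a phosphatase that acts on Cdks, passed (1.84 ± 0.47, adjusted p = 0.0322), on 1 of its 2 tested probes. That probe was well above background in 3 of 6 cells of experiment 1 and in 6 of 6 of experiment 2. The cells of experiment 2 carried it past the filter, as for Cdk1, so its call is a description and supports nothing. None of the 4 tested genes for the phosphorylation of Cdk1 passed, among them the activating phosphatase Cdc25b (0.29) and the inhibitory kinase Pkmyt1 (0.08). The other two, named here after their values were seen, differed by more: the activating phosphatase Cdc25a by 1.32 (adjusted p = 0.221 in limma) and the inhibitory kinase Wee2 by 0.69 (adjusted p = 0.0829), and Wee2 passed with quantile normalization and with normexp. None of the 3 tested genes of the Cdk-activating kinase passed, with Ccnh at -0.24 and Cdk7 at -0.14. Cdk2, Cdk4 and Cdk6, the other Cdks, were well above background in 0, 3 and 4 cells by their brightest probes and were not tested.

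Genes for cyclin destruction moved both ways. Ube2c and Ube2s encode the enzymes that load and extend ubiquitin for the anaphase-promoting complex (APC/C), the ligase that marks cyclins A and B. Ube2c was higher in experiment 2 by 1.10 ± 0.29 (SE, adjusted p = 0.0373 in limma) and Ube2s lower, at -1.61 ± 0.25 (adjusted p = 0.00256), on both of its tested probes. Anapc13, an APC/C subunit, was lower as well, at -2.87 ± 0.77 (adjusted p = 0.0417). These were 3 of 14 genes in that list. Of 4 APC/C activators and inhibitors 0 passed, with Cdc20 at 0.89 (adjusted p = 0.0777) and Fbxo5 at 0.95 (adjusted p = 0.350). In the SCF list Skp1, its adaptor, was higher by 0.80 ± 0.20 (adjusted p = 0.0313), as 1 of 5.

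Of 11 tested pocket protein and E2F genes, E2f4, an E2F that mostly represses, was higher by 1.09 ± 0.24 (SE, adjusted p = 0.0164 in limma). It was well above background in 4 cells of experiment 1 and in 6 of experiment 2. The cells of experiment 2 carried it past the filter, so its call is a description and supports nothing. None of 9 tested other cyclins passed by its brightest probe, with Ccno at -0.73 and Ccni at -0.09. One of the 4 tested probes of Ccni did pass. These counts moved with the processing: 0 of 59 pathway genes passed with the percentile over all probes or with a floor per array, 11 with quantile normalization and 10 with normexp. Ube2s, Ube2c, Cks2, Skp1 and Anapc13 passed with quantile normalization and with normexp, and E2f4 with neither.

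**Figure D5:**
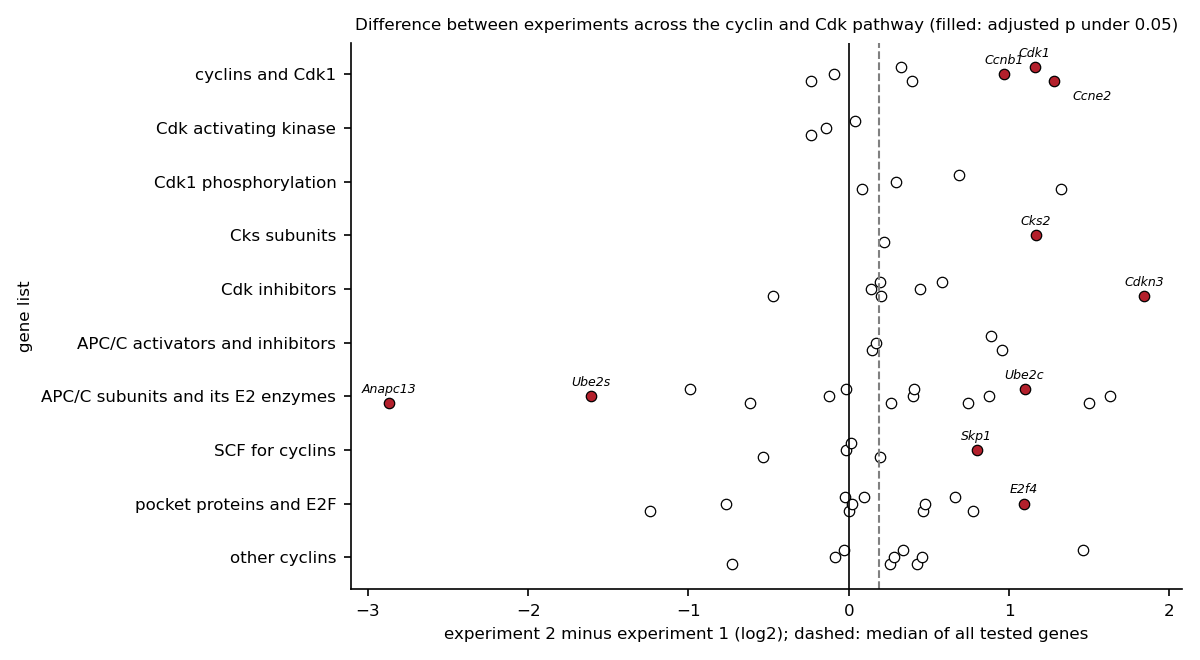
Experiment 2 minus experiment 1 (log2) for the 7 tested members and the 59 tested pathway genes, by list, with passing genes filled and named and the median of all tested genes dashed. The members Ccnb1, Cdk1 and Ccne2 stand near Cks2, Ube2c and E2f4 at about 1 log2 unit, while Ube2s and Anapc13 lie on the other side.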

How the data were processed

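Single blastomeres were profiled on Agilent whole mouse genome arrays. The deposited values are intensity readings of scanned spots, taken by the authors with Agilent Feature Extraction, version 9.1.3.1 per the file headers. Poly(A) RNA was amplified in rounds before labelling, per the labels' protocols, which can widen differences between cells. The labels name Cy3 for all cells, but the signal of experiment 1 sits in Cy5. For values above 1, the deposited value table holds the same intensity divided by 1 constant per array. Lower values were not compared in this way. On several arrays the lowest deposited value is also the median, such as 0.049 for cell 1 of pair D in experiment 1, so low signals there are tied. The number of arrays limits the precision.

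Outlier spots were left out, spots of a probe were averaged, and processed signals were scaled to the 75th percentile of each array, computed from 5858 probes that rose well above background on every one of the 12 arrays. Each array has a lowest signal well above background, and the highest of these, 0.0574, was set as the floor for all cells before log2. Tests covered the 16694 probes well above background on 6 or more arrays, with limma 3.58.1 in R 4.3.3. Embryos were compared by a moderated F test within experiments, cell numbers with embryo as a fixed block, and experiments with embryo as a random block. Adjusted p-values are Benjamini-Hochberg over all tested probes, with a threshold of 0.05. Accessions were named through the gene table of GRCm38.p6, which named 22944 probes. All 10 members are named, and pathway genes by passing a comparison (up to 4 a list) or by highest mean (up to 2), with 3 nearest genes per member measured on all 12 arrays. Members, lists and the floor were chosen with earlier results of these data known. Alternatives changed the scaling, background, floor, filter, values, probes, blocks and cells. Figures used matplotlib 3.10.9. The genes whose pattern was most like that of Ccnb2 are not reported here.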

Additional observations from a re-analysis of the deposited data

Results flagged for a closer look

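Cdk1 in cell 2 of pair D of experiment 1 read -4.09, while the other 5 cells of that experiment were at the floor of -4.12, so that it stood apart by a gap test (Dixon). The other cells have no spread there because the floor gives them 1 value. Such a test marks about 1 group in 20 by chance, but that rate does not hold here. With the other 5 cells tied, any reading above the floor would have been marked.

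For Ccnb2 the difference between cell 2 and cell 1 was below 0 in all 3 embryos of experiment 2 and above 0 in those of experiment 1, where pair D, at 0.0044, had next to none. The difference of these differences was -1.13 on the log2 scale and failed adjustment (adjusted p = 0.912 in limma).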

How the results depend on the processing

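Between experiments 3 members passed as reported. With the percentile over all probes, a floor per array, a lower common floor or embryo means 0 passed, and with normexp or the deposited values 1 did. Leaving out each cell gave 1 to 3, with 1 without cell 1 of pair L in experiment 1. The cell number as a replicate block gave 2 (Ccnb1 and Cdk1; Ccne2 had an adjusted p of 0.0550 in limma), and for embryos the replicate block gave 0 members, as before, while the probes called over the array went from 234 to 0. Whether cell numbers pair cells across embryos was not settled. Differences between sisters correlated at -0.08 to 0.26 between embryos, over 0.1 in 3 of 15 pairs. Yet 12 of 12 cells were closest on average to their own number. Sisters cannot differ in that count, because each cell was measured from the mean of its embryo. The pathway genes that passed, 7 as reported, numbered 0 with the percentile over all probes or a floor per array, 1 with the deposited values or a lower common floor, and 11 with quantile normalization.

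The probes called over the array ranged from 173 (percentile over all probes) to 1833 (quantile normalization) between experiments, where the report has 1353, and from 0 to 4356 (floor per array) between embryos. Between cell numbers 0 passed in each of 22 alternatives, with at least 263 at an unadjusted p under 0.05. The median difference of all tested probes moved from 0.19 to 0.00 with the percentile over all probes, 0.05 with quantile normalization, -0.08 with normexp, -0.11 with a floor per array and 0.09 with a lower common floor.

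One called value changed sign: between experiments Cdk1, 1.16 as reported, became -0.059 with normexp. The other signs turned for values that had not passed. Between experiments Ccnb2 became 0.098 with the deposited values and 0.0086 with quantile normalization, and ran from -0.23 to 0.064 with 1 cell left out. Between cell numbers, the percentile over all probes gave -0.45 for Ccna2, -0.40 for Ccnb1 and -0.31 for Ccne1, and normexp gave -0.0094 for Ccnd3. Cdk1 became 0.33 with the deposited values, 0.14 with a floor per array, 0.28 with a lower common floor. With 1 cell left out, Cdk1 ran from -0.21 to 0.040, Ccna2 from -0.071 to 0.19 and Ccnb2 from -0.28 to 0.11. Experiment 1 alone gave 0.45 for Ccnb2, 0.064 for Ccne2 and 0.012 for Cdk1, and experiment 2 alone gave -0.16 for Ccna2 and -0.068 for Ccne1. None of these passed, and the cause was not tested.

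Of 160 values between experiments, 123 kept direction and side of the threshold, and of 167 between embryos all 167 did. Signal over background limits Cdk1, Ccne2 and Ccnd3, which lie near the floor, and Ccna1, Ccnd1 and Ccnd2, which mostly lie under it.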
